A study of Rattus norvegicus with 4 samples.

Results

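Myh11-positive smooth muscle cells were taken from a single-cell RNA sequencing series of rat sciatic nerve and dorsal root ganglion, and 242 of its 41444 cell barcodes were members. A member had at least 500 detected genes, at most 20% of its transcripts from mitochondrial genes, at least 2 transcripts of Myh11, and at least 5 transcripts of Acta2 and Tagln together, making up at least 10 of every 10000. It also had at most 2 transcripts of the endothelial genes Cdh5 and Egfl7 together. A transcript here is a UMI (a unique molecular identifier, which marks 1 captured RNA molecule). Members were thus chosen by the measured counts of Myh11, Acta2, Tagln, Cdh5 and Egfl7, so the levels of these genes are given as a description only.

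Vascular smooth muscle cells are the contractile mural cells that wrap arteries and arterioles, including the vasa nervorum, the small vessels that feed peripheral nerves and ganglia. Their contraction sets vessel calibre and so blood flow: calcium entering the cytoplasm leads to phosphorylation of the myosin light chain, and smooth muscle myosin, whose heavy chain is encoded by Myh11, then pulls on actin filaments rich in the Acta2 product. Pericytes, the mural cells of capillaries, share part of this programme but carry little of the contractile apparatus.

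The animals were Sprague Dawley rats, all without any genetic or drug treatment named in the labels. Sciatic nerve and dorsal root ganglion were each taken at 1 day and at 8 weeks of age, which gives 4 groups (P1-SN, Adult-SN, P1-DRG and Adult-DRG) with 1 library each, and sex was not determined. The labels also describe a primary Schwann cell culture in serum medium, without saying whether the sequenced cells had been cultured. The deposited matrix marks the library of each barcode with a number from 1 to 4 that no source used here ties to a group. The libraries are therefore named 1 to 4 below, and nothing is attributed to age or tissue. With 1 library per group there is no replicate check, every interval covers counting error only (exact, 95%), and no test between conditions could be made.

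Members numbered 8, 157, 64 and 13 in libraries 1 to 4. Of the barcodes past the gene and mitochondrial limits (9828, 8426, 6473 and 8448), they were 0.0814% (0.0351 to 0.160), 1.86% (1.59 to 2.18), 0.989% (0.762 to 1.26) and 0.154% (0.0820 to 0.263). Library 2 thus held the highest share, and libraries 2 and 3 together held nearly all members; only these 2 libraries had enough (at least 20) for comparisons, and libraries 1 and 4 are given as levels. The median member had 3556, 3618, 5310.5 and 9235 UMIs in libraries 1 to 4, against 6619, 1605, 4627 and 7553 in the other barcodes. Summed over members, the depth was 37993, 667471, 438141 and 143470 UMIs, so a level in library 1 or 4 rests on few molecules. The part of depth in these shares was not tested.

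The rule's own edges were gradual. Of the members, 33 had exactly 2 Myh11 UMIs, 15 had 3 and 194 had 4 or more, with medians of 90.5, 106 and 164 UMIs of Acta2 and Tagln per 10000. Just outside, 39 barcodes met every other condition with 1 Myh11 UMI (median 99.6 per 10000) and 415 met them with none (median 28.9 per 10000). The barcodes with 1 Myh11 UMI therefore resembled those with 2 in Acta2 and Tagln, whereas those without Myh11 carried less. A further 24 barcodes had the Myh11 UMIs but fewer than 5 of Acta2 and Tagln, and 6, all in library 2, were left out for more than 2 UMIs of Cdh5 and Egfl7.

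Markers of other cell types were checked in the members of each library. The 3 smooth muscle markers made up 109, 177, 216 and 127 of every 10000 UMIs in members of libraries 1 to 4 and 1.25, 0.276, 1.22 and 0.997 in the other barcodes. Skeletal muscle markers reached at most 0.685 and cardiac muscle markers at most 0.183 per 10000, and mesothelial and adipocyte markers were at 0. No list separating vascular from other smooth muscle was tested, so the word vascular in the cells' name rests on no marker tested here. All 8 neuron markers had UMIs in members of libraries 2 and 3, at 37.8 and 27.6 per 10000 against 150 and 220 in the other barcodes, and haemoglobin and Alas2 made up 47.0 and 34.4 per 10000 against 13.3 and 47.9. In library 2 the haemoglobin lay in few members, since 122 of 157 had none and the richest had 941 per 10000. By limits set after the data were seen, 1, 10, 3 and 0 members of libraries 1 to 4 counted as mixed. The limits per 10000 UMIs were 20 for glial, endothelial or macrophage markers and 300 for haemoglobin and Alas2. For neuron markers, and for Dcn, Lum and Pdgfra together, they were 100. Values without the mixed members are given for some of the genes where they differ. Without them, haemoglobin and Alas2 were at 0.615 and 19 per 10000 in libraries 2 and 3. Fibroblast markers stood at 481, 15.1, 74.8 and 27.3 per 10000 in members of libraries 1 to 4, against 1012, 26.5, 41.4 and 182 in the other barcodes. In library 1 the mixed member, with 16166 of the 37993 UMIs, carried nearly all of this: the median member had 22.3, the richest 1101, and the level without the mixed one was 21.1. In library 3 members exceeded the other barcodes, 62 of 64 had a fibroblast marker UMI (median 39.5), and without the mixed members the level was 84.2; its part in the results of library 3 was not tested. No doublet caller was run; 191 barcode sequences occurred in more than 1 library, 4 members carried one of these, and no sequence was a member in more than 1 library.

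Promoters are shown because smooth muscle genes are the textbook targets of serum response factor, which binds the CArG box, a 10-base motif of CC, 6 bases that are each A or T, and GG. The box is its own reverse complement in form, so both strands are searched at once, and it overlaps no other motif searched. Windows of 300 bases (250 before and 50 after the start site) came from RefSeq on build GRCr8, and 1.64% of all 33469 windows held the box. Of the contractile genes listed below, 29 of 36 matched a window and 3 of them (10.3%) held it, against 1.77% of all 27457 genes. With 1 substitution in the core allowed, the contractile share was 13.8% against 10.1% of all genes. Among the other lists, the immediate early and heat shock genes had the higher share, 4 of 24 (16.7%). The 3 contractile genes were Cnn2 (calponin 2, named only because its members had 2 and 3 UMIs in libraries 2 and 3), Ldb3 and Fhl1. The promoter of Rergl, the gene outside the lists with the highest ratio in the members, held 1 too, and that of Acta2 had 2 only when 1 substitution in the core was allowed, as in 10.1% of all genes. The windows lie on the minus strand at chr4:174123923-174124222 (Rergl), chr1:241172454-241172753 (Acta2) and chr16:9924630-9924929 (Ldb3), and on the plus strand at chrX:139638246-139638545 (Fhl1). They are printed 5′ to 3′ with the box in capitals. Its first base lies at -46, -134, -52 and -102 from the start site, in the same order (the first of the 2 for Acta2).
Rergl: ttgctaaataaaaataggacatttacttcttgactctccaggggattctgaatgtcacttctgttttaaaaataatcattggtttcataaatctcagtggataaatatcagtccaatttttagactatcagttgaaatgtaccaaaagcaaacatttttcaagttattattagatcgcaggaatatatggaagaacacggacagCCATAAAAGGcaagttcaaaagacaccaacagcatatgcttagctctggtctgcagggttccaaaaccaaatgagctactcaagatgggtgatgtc
Acta2: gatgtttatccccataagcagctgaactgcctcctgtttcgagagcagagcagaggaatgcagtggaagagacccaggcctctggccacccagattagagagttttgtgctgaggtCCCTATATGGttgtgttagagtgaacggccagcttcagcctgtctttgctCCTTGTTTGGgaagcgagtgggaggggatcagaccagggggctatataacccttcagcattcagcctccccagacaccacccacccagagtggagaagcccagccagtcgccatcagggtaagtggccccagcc
Ldb3: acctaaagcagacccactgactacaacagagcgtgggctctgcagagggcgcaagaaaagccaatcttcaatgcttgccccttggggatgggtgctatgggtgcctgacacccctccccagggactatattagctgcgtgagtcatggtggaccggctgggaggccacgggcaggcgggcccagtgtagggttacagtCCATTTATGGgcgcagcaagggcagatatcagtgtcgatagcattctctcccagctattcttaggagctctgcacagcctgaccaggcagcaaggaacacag
Fhl1: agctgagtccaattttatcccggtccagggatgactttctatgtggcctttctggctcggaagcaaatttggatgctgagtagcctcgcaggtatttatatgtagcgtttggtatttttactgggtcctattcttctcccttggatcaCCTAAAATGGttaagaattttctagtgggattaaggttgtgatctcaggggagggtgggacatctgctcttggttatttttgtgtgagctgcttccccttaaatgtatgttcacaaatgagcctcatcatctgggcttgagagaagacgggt
A match describes these letters only; binding was not measured, and a promoter without a match says nothing about the factor.

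The first question was what set the members apart from the other barcodes of the same library, which included pericytes and every other cell type. Thin-filament and myosin genes were far higher in the members of both libraries. Levels are in CPM (counts, here UMIs, per 1000000 UMIs), summed over the members of a library, and the log2 ratio is members over comparison; a gene counted as measured with at least 20 UMIs in all and 10 on 1 side, and as higher or lower at 2-fold. Of all 10055 genes measured in library 2, 16% were at least 2-fold higher and 24.8% at least 2-fold lower in members; of 9313 in library 3, 21.9% and 17.7% were. In both libraries at once, 871 genes were higher and 1113 lower. A list count over both libraries is stricter than a count in 1 library, so these shares are no baseline for it. With median-of-ratios scaling, which moved all log2 ratios by 0.24 (library 2) and 0.35 (library 3), the counts were 634 and 1628. Of 34 measured genes of the contractile apparatus, 31 were at least 2-fold higher in both libraries and none was lower. The list's median log2 ratio was 3.39 in library 2 and 3.98 in library 3, against -0.25 and 0.0037 over all genes measured. These genes were listed with earlier results of the series known, so their direction is not independent evidence.

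Actg2, the gamma smooth muscle actin, stood at 290, 231, 3917 and 488 CPM in members of libraries 1 to 4 and at 0.282 and 10.3 in the other barcodes of libraries 2 and 3. Its log2 ratios were 9.68 (9 to 10.43) in library 2 and 8.57 (8.45 to 8.68) in library 3, the highest of the list in both. Library 3 stood well above the other 3 libraries for this gene. Cnn1, calponin 1, an actin-binding brake on the myosin ATPase, was at 368, 190, 669 and 69.7 CPM in the 4 libraries. Its log2 ratios were 9.08 and 8.23. Lmod1, leiomodin 1, which nucleates actin filaments in smooth muscle, was at 132, 388, 301 and 160, with log2 ratios of 8.24 and 8.12. Unlike Actg2, Lmod1 differed little between libraries 2 and 3.

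Myl9, the regulatory myosin light chain, was at 2237, 4113, 3786 and 2697 CPM in the 4 libraries and had log2 ratios of 7.90 (7.80 to 8.00) and 6.68 (6.59 to 6.77). Tpm2, beta tropomyosin, was at 3316, 4313, 6455 and 3116, with log2 ratios of 7.38 and 6.79. Across the 4 libraries both genes varied less than Actg2. Mylk, the kinase that phosphorylates that light chain, was added after its values were seen; it was at 791 and 502 CPM in libraries 2 and 3, with log2 ratios of 6.27 and 6.65. Tpm1, alpha tropomyosin, had lower ratios (3.74 and 3.82), since the other barcodes carried 191 and 359 CPM. Nexn, the actin-binding protein nexilin, had log2 ratios of 6.81 and 7.09 from levels of 222 and 310.

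Des, the intermediate filament desmin, had a log2 ratio of 8.22 (8.03 to 8.41) in library 2 and 5.66 (5.36 to 5.96) in library 3. Its members' level was 1338 CPM in library 2 and 276 in library 3, so it lay on the side of library 2, opposite to Actg2. Mustn1, a small nuclear protein of muscle, was likewise at 2006 and 687, with log2 ratios of 7.23 and 5.41. The 3 measured genes of the list that were not 2-fold higher in both libraries were Rhoa (0.33 and 0.93), the small GTPase that raises calcium sensitivity, Fhl1 (0.56 and 2.77), a LIM-domain protein of muscle, and Cryab (0.58 and 3.65), the chaperone alpha B crystallin. Each missed the 2-fold mark through library 2, and Rhoa in library 3 as well. Ldb3, a Z-disc adaptor, had ratios of 2.92 and 2.59.

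**Figure D1:**
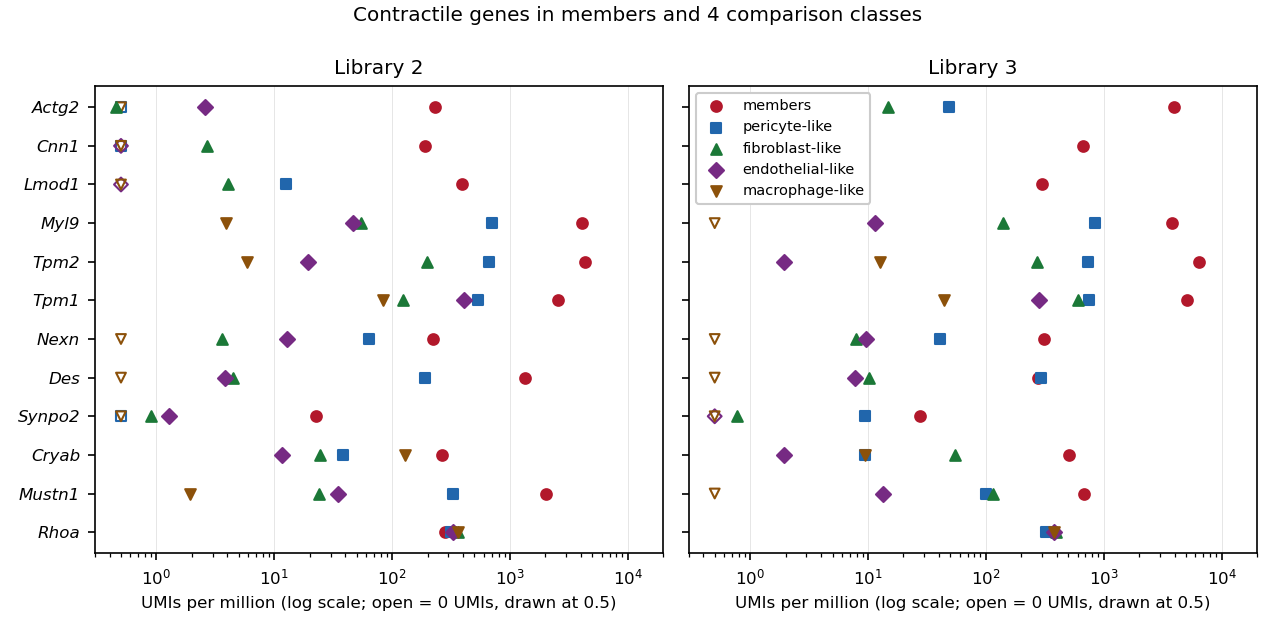
CPM (log axis) of 12 contractile genes in the members and in pericyte-, fibroblast-, endothelial- and macrophage-like barcodes of libraries 2 and 3; each point is 1 class in 1 library and open points are classes with 0 UMIs. The members sat above the 4 other classes for Actg2, Cnn1, Lmod1, Myl9 and Tpm2 in both libraries, and among those classes the pericyte-like barcodes came closest for Myl9 and Tpm2.

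Outside the lists, Rergl, a small Ras-like GTPase gene, was at 79.0, 103, 105 and 293 CPM in members of libraries 1 to 4. It was at 0 UMIs in all pericyte-like and all fibroblast-like barcodes, and at 6 and 10 UMIs in all other barcodes of libraries 2 and 3, with log2 ratios of 10.25 (9.06 to 11.75) and 9.82 (8.81 to 10.97). Rergl was thus found almost only in members, though in a minority of them: 28.7% of library 2 and 29.7% of library 3 members held a UMI. Other genes outside the lists with high ratios in both libraries were Map3k7cl (8.29 and 7.75), Spink8 (8.28 and 7.76), a Kazal-type protease inhibitor, Xirp1 (9.02 and 6.85), an actin-binding repeat protein, Fmod (6.85 and 6.12), the small matrix proteoglycan fibromodulin, and Nrgn (6.47 and 5.24), a calmodulin-binding protein.

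Calcium handling and membrane channels followed. Of 28 measured genes, 12 were at least 2-fold higher in both libraries and none was lower. In library 2 alone, 16 of 30 were higher and 2 lower, beside 16% and 24.8% of all genes. In library 3 alone, 15 of 28 were higher and 2 lower, beside 21.9% and 17.7%. Pln, phospholamban, the brake on the calcium pump of the sarcoplasmic reticulum, was at 421, 682 and 73.0 CPM in libraries 1 to 3 and at 0 UMIs in library 4. Its log2 ratios were 7.81 (7.57 to 8.05) and 9.30 (8.24 to 10.49); the higher ratio of library 3 came with the lower members' level, because the other barcodes of that library held 10 UMIs. Casq2, the calcium-storing protein calsequestrin, had log2 ratios of 7.40 and 6.12. Itpr1, the IP3 receptor that releases stored calcium, had 5.33 and 4.37, and Ano1, a calcium-activated chloride channel, 5.85 and 4.49. Kcnk3, an acid-sensitive potassium channel, was at 30.0 and 112 CPM, with ratios of 1.51 and 4.03.

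Of 31 measured receptors and second messenger genes, 16 were at least 2-fold higher in both libraries and none was lower in both. Library 2 by itself had 21 of 36 higher and 4 lower, beside 16% and 24.8% of all genes. Library 3 had 23 of 34 higher and 1 lower, beside 21.9% and 17.7%. P2rx1, the ATP-gated channel that answers sympathetic ATP, had log2 ratios of 7.89 and 6.52 from 29 and 7 UMIs in members. Mrvi1, the substrate through which cGMP kinase inhibits IP3 receptors, had 7.47 and 5.2, and Pde3a, a cAMP phosphodiesterase, 6.45 and 5.27. Gucy1a3 and Gucy1b3, which together form the nitric oxide receptor soluble guanylyl cyclase, were at 190 and 292 and at 246 and 160 CPM in libraries 2 and 3. Their ratios were 5.68 and 5.62, and 5.02 and 5.41, close to each other in both libraries. Ednra, the endothelin A receptor that mediates constriction, had 3.38 and 3.14. Npy1r, the receptor for the sympathetic cotransmitter neuropeptide Y, was at 632, 815, 68.5 and 146 CPM in the 4 libraries. The other barcodes of library 2 carried it at 116, and its ratios were 2.81 and 3.29.

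Transcription factors and Notch genes were fewer. Of 23 measured, 11 were at least 2-fold higher and 1, Klf5 (-1.86 and -1.67), at least 2-fold lower in both libraries. Library 2 by itself had 16 of 26 higher and 1 lower, beside 16% and 24.8% of all genes. Library 3 had 18 of 26 higher and 1 lower, beside 21.9% and 17.7%. Notch3, the Notch receptor of arterial mural cells, was rare in UMIs (11 and 5) and had log2 ratios of 5.33 (4.18 to 6.38) and 4.30 (2.61 to 5.61). Among its targets in the list, Heyl had 2.83 and 3.91 and Hes1 3.03 and 1.96, whereas Hey2 had 0.76 and 3.13. Mef2c, a muscle transcription factor, had 3.38 and 2.45, Foxc1 4.09 and 2.24, and Foxs1 2.89 and 2.84. Myocd, the coactivator of serum response factor, was added after its values were seen; its 11 and 16 UMIs in members compared with 5 and 15 in all other barcodes of libraries 2 and 3.

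Of 51 measured matrix and basement membrane genes, 16 were at least 2-fold higher and 2, Fbln2 (-2.41 and -2.35) and Dcn (-1.08 and -1.37), at least 2-fold lower in both libraries. In library 2 alone, 20 of 52 were higher and 11 lower, beside 16% and 24.8% of all genes. In library 3 alone, 36 of 53 were higher and 2 lower, beside 21.9% and 17.7%. In library 2, 1 member held 190 of the 244 Dcn UMIs and 146 of 157 had none, and without the mixed barcodes Dcn had -3.12 and Fbln2 -5.54. Eln, elastin, the core of the arterial elastic lamina, was at 237, 411, 5012 and 892 CPM in members of the 4 libraries. Its log2 ratios were 4.21 (4.02 to 4.40) and 4.97 (4.91 to 5.04), and as with Actg2 the level of library 3 was far above the others. Lama5, the laminin alpha 5 chain of vascular basement membrane, had ratios of 4.72 and 4.75, and Ltbp1, which anchors latent TGF-beta in matrix, 3.7 and 4.2. Col4a2, a collagen IV chain, was at 28.5 and 395 CPM, with ratios of 2.89 and 4.70. Itga1, the collagen-binding integrin alpha 1, was at 56.9 and 194, with 2.86 and 5.22. Both stood higher in library 3.

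Among 47 measured growth factors and their receptors, 15 were at least 2-fold higher and 5 at least 2-fold lower in both libraries. In library 2 alone, 21 of 53 were higher and 11 lower, beside 16% and 24.8% of all genes. In library 3 alone, 28 of 50 were higher and 7 lower, beside 21.9% and 17.7%. Ntf3, neurotrophin 3, a survival factor for sensory and sympathetic neurons, was at 55.4 and 41.1 CPM in members. Its log2 ratio was 7.69 (6.86 to 8.57) in library 2 but 1.07 (0.31 to 1.73) in library 3, where the other barcodes carried 19.6, and it ranged from 0.71 to 2.23 in library 3 over the alternatives run. Slit3, a secreted guidance cue, had 5.69 and 2.73, and Tgfb3 2.92 and 4.61. Ptn, the growth factor pleiotrophin, had -1.95 and -2.13 (-3.85 in library 2 without the mixed barcodes), and Bdnf, brain-derived neurotrophic factor, -3.73 and -1.43.

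Ratios against all other barcodes were in general lower when each barcode was thinned to 2000 UMIs. Barcodes with fewer UMIs were left out, 55.1% of the other barcodes in library 2 and 28.3% in library 3, so depth and the make-up of the other barcodes changed together and fewer genes were measured. Contractile genes at least 2-fold higher in both libraries then numbered 27, and the ratios were 8.02 and 6.86 for Actg2, 8.40 and 7.19 for Cnn1, and 7.11 and 3.94 for Des. The other lists lost more: 7 calcium and channel genes, 9 receptor and messenger genes, 5 transcription factors, 8 growth factor genes and 11 matrix genes were then higher in both libraries. Foxc1 (0.83) and Slit3 (0.92) were under 2-fold in library 3.

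The second question was how the members differed from the nearest mural cells, the pericyte-like barcodes. Most measured contractile genes were at least 2-fold higher in the members. Of 13 measured genes known from pericytes, 4 were at least 2-fold lower in both libraries, among them Higd1b, Steap4 and Vtn. A pericyte-like barcode had at least 5 UMIs of Rgs5, Kcnj8 and Abcc9 together and at least 1 of Pdgfrb, and no Myh11, so these 5 genes are again a description; Acta2 and Tagln were not used. There were 29 in library 2 (78877 UMIs, median 2460) and 168 in library 3 (535319 UMIs, median 2755.5), so the intervals of library 2 are wide. The members are the same as above, and the other barcodes above include the pericyte-like ones. Of 3779 genes measured in library 2, 8.04% were at least 2-fold higher and 13.5% at least 2-fold lower; of 5308 in library 3, 8.36% and 10.7% were. In both libraries at once, 81 genes were higher and 91 lower.

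Of 31 measured contractile genes, 19 were at least 2-fold higher in both libraries and none was lower in both; the medians were 1.47 and 1.59, against -0.15 and -0.03 over all genes measured. Cnn1 had 0 UMIs in the pericyte-like barcodes of both libraries. With the floor of 3 UMIs in their place, its log2 ratio was 2.32 in library 2 and 6.90 in library 3. A ratio at the floor depends on that setting and is not a bound on the true ratio. Actg2 also had 0 there in library 2 (2.60 at the floor) and 26 in library 3, with a ratio of 6.33 (5.78 to 6.95). Lmod1 had 1 UMI in each, with intervals of 2.44 to 10.24 and 4.83 to 12.65. All 3 were thus close to missing from the pericyte-like barcodes, apart from Actg2 in library 3.

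Myl9 and Tpm2 were present in both classes and differed in amount. Myl9 was at 4113 and 3786 CPM in members and 697 and 839 in pericyte-like barcodes, with log2 ratios of 2.56 (2.18 to 2.97) and 2.17 (2.02 to 2.33). Tpm2 was at 659 and 740 in pericyte-like barcodes, with ratios of 2.71 (2.31 to 3.13) and 3.13 (2.97 to 3.28). Cryab had 2.79 (1.22 to 5.08) and 5.75 (4.51 to 7.39), and Nexn 1.81 (0.55 to 3.45) and 2.92 (2.26 to 3.64). Other listed genes did not separate the classes in both libraries. Des had a ratio of 2.81 (2.08 to 3.66) in library 2 and -0.09 (-0.44 to 0.26) in library 3, where pericyte-like barcodes carried it at 293 CPM and members at 276. Ldb3 had 0.58 (-0.61 to 2.07) and -2.13 (-2.87 to -1.44). Rhoa had -0.16 and 0.23.

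**Figure D2:**
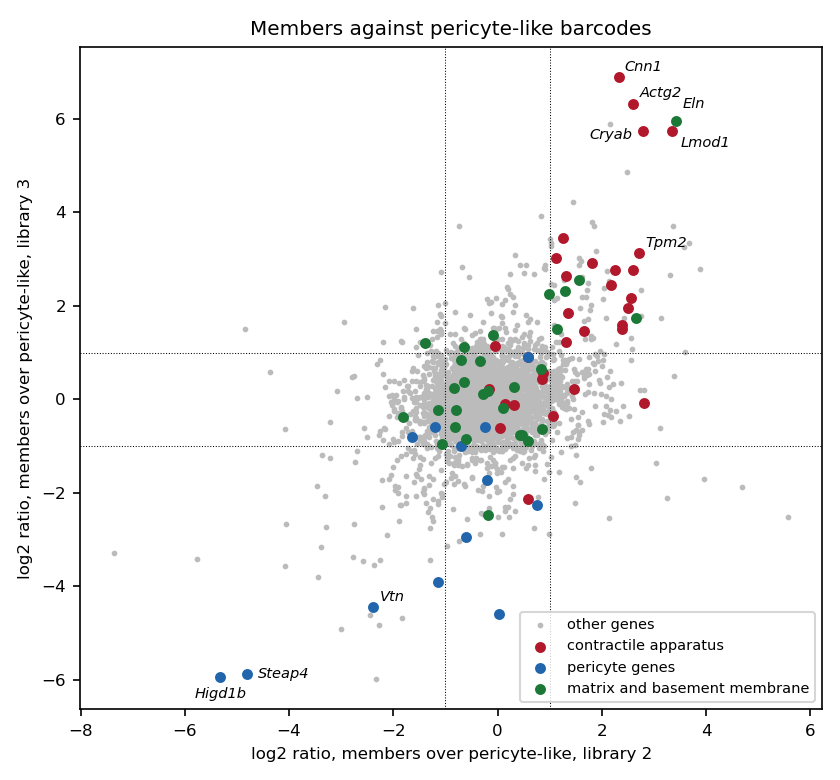
Log2 ratio of members over pericyte-like barcodes in library 2 (horizontal) and library 3 (vertical); each point is a gene measured in both, coloured by list, and dotted lines mark 2-fold. Contractile genes lie mostly in the upper right, with Cnn1 at 2.32 and 6.90, and the pericyte genes Higd1b, Steap4 and Vtn lie in the lower left.

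Of 13 measured pericyte genes that the rules did not use, 4 were at least 2-fold lower in members in both libraries and none was higher. In library 2 alone, 6 of 13 were lower, beside 13.5% of all genes. In library 3 alone, 10 of 15 were lower, beside 10.7%. Higd1b, a mitochondrial protein of pericytes, was at 22.5 and 11.4 CPM in members and 900 and 708 in pericyte-like barcodes. Its log2 ratios were -5.32 (-6.23 to -4.51) and -5.96 (-7.59 to -4.72). Steap4, a metalloreductase, was at 15.0 and 0 in members and 418 and 403 in pericyte-like barcodes, with -4.80 in library 2 (-6.35 without the mixed barcodes). In library 3 it had 0 UMIs in members, and the ratio was -5.88 at the floor. Vtn, vitronectin, had -2.38 (-2.77 to -1.99) and -4.45 (-5.68 to -3.44). Ndufa4l2, a hypoxia-inducible mitochondrial subunit, had -1.14 (-1.45 to -0.81) and -3.91 (-4.64 to -3.26), and its library 2 value was -0.67 under a mitochondrial limit of 10%. The difference was thus steepest for Higd1b and Steap4. Among the genes that chose the pericyte-like class, Rgs5, a regulator of G protein signalling, was at 105, 348, 123 and 627 CPM in the members of libraries 1 to 4, so members carried some. Cspg4, the NG2 proteoglycan of mural cells, was less different (-0.69 and -1.01).

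Receptor genes differed in direction. Of 16 measured receptor and messenger genes, Npy1r alone was at least 2-fold higher in both libraries, and Agtr1a, Ednrb and Rgs16 were at least 2-fold lower. Library 2 by itself had 1 of 18 higher and 5 lower, beside 8.04% and 13.5% of all genes. Library 3 had 1 of 24 higher and 8 lower, beside 8.36% and 10.7%. Npy1r had ratios of 1.61 (0.99 to 2.32) and 2.20 (1.04 to 3.53). Agtr1a, the angiotensin II type 1a receptor, was at 13.5 and 22.8 CPM in members and 228 and 271 in pericyte-like barcodes, with ratios of -4.08 (-5.42 to -2.85) and -3.57 (-4.66 to -2.65). Ednrb, the endothelin B receptor, was at 31.5 and 18.3 against 330 and 164, with -3.39 (-4.27 without the mixed barcodes) and -3.17. Ednra, by contrast, differed by less than 2-fold (-0.30, -1.46 to 1.09, and -0.85, -1.59 to -0.14). The 2 endothelin receptors therefore differed in how they separated the classes, although the difference between them was not tested. Rgs16, which limits G protein signals, had -3.46 and -1.86. Gucy1a3 (-0.62 and 0.17) and Gucy1b3 (-0.72 and 0.27) were under 2-fold in both libraries. Of 13 measured calcium and channel genes, 1, Pln, was at least 2-fold higher in both. It had 1.84 (1.10 to 2.69) in library 2 and, with 0 UMIs in pericyte-like barcodes of library 3, 3.70 at the floor there. Of the calcium and channel genes, 7 of 17 were higher and 0 lower in library 2 by itself, beside the same shares of all genes. For library 3 these counts were 4 of 15 and 3.

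Of 29 measured matrix genes, 5 were at least 2-fold higher in members in both libraries and none was lower. In library 2 alone, 6 of 33 were higher and 4 lower, beside 8.04% and 13.5% of all genes. In library 3 alone, 18 of 44 were higher and 3 lower, beside 8.36% and 10.7%. Eln had 1 UMI in the pericyte-like barcodes of library 2 (interval 2.53 to 10.33) and was at 80.3 CPM in library 3, with a ratio of 5.96 (5.53 to 6.43). Lama5 had 1.56 (0.30 to 3.21) and 2.56 (1.65 to 3.59). Sparcl1, a matricellular protein, had 1.13 and 1.5 (0.85 in library 2 with at least 1000 detected genes). Col1a1, a collagen I chain, had 1.29 and 2.32 (0.73 in library 2 without the mixed barcodes), and is one of the fibroblast markers that members of library 3 carried. Lox, the enzyme that crosslinks elastin and collagen, had 1 UMI in pericyte-like barcodes of library 2 and a ratio of 1.75 (1.05 to 2.49) in library 3. In library 3, the ratio of Eln was thus the highest of these 5.

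Among growth factors, Igfbp5, an IGF-binding protein, had 3.14 (1.91 to 4.78) and 1.73 (1.33 to 2.15). In library 2, 1 member held 173 of its 374 UMIs and 100 of 157 had none; without that member, a choice made after the values were seen, the ratio was 2.27. Slit3 had 1.55 and 3.03. Ptn was at 458 and 256 CPM in members and 3093 and 1629 in pericyte-like barcodes, with ratios of -2.75 (-4.65 without the mixed barcodes) and -2.67. Cxcl12, a chemokine, had 3 and 2 UMIs in members and was at 735 and 67.2 CPM in pericyte-like barcodes; its intervals were -9.67 to -5.74 and -6.98 to -1.92. Eng, the TGF-beta coreceptor endoglin, had -2.78 (-1.38 under a mitochondrial limit of 10%) and -3.37. Outside the lists, Sorbs2 (3.36 and 3.70), an adhesion adaptor, Map3k7cl (3.31 and 2.66) and Crispld2 (3.88 and 2.80) were higher in members. Ptch1, the hedgehog receptor, was lower (-2.27 and -4.84), as were Cygb (-2.45 and -4.61), cytoglobin, and Pltp (-4.06 and -2.66), the phospholipid transfer protein. The ratios of the last 3 genes were negative in both libraries, and for Ptch1 and Cygb they were further from 0 in library 3.

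The third comparison was with fibroblast-like barcodes, 279 in library 2 and 877 in library 3. They had at least 10 UMIs of Dcn, Lum and Col1a1 together, making up at least 20 of every 10000. They also had at least 1 of Pdgfra, no Myh11, at most 1 of Rgs5 and at most 2 of Cdh5 and Egfl7 together. Of 8096 genes measured in library 2, 11.3% were at least 2-fold higher in members and 19% at least 2-fold lower; of 8882 in library 3, 11.8% and 9.55% were. Contractile genes were higher, at 27 of 32 in both libraries with none lower, and of 49 matrix genes 15 were lower and 6 higher in both libraries. Over all genes, 331 were higher and 491 lower in both, or 257 and 624 with median-of-ratios scaling, which moved log2 ratios by 0.34 and 0.09. Lox had ratios of -0.30 and -3.22, but Lama5 had 6.11 and 5.58. Sparcl1 had 1.77 and 3.38, and Itga1 had 3.66 and 4.21. Elastin did not separate the 2 classes in library 2: Eln was at 365 and 1154 CPM in fibroblast-like barcodes, with ratios of 0.17 (-0.03 to 0.37) and 2.12 (2.05 to 2.19). Lama5, Sparcl1 and Itga1 were thus higher in members than in fibroblast-like barcodes of both libraries, and Eln in library 3.

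The members differed among themselves, and this differed by gene. Per member, Acta2 had a median of 44.7 UMIs per 10000 in library 2 (highest 114) and 61.8 in library 3 (highest 179), and 1 member in each library had none. Myl9 had medians of 40.2 and 43.0, with 2 of 157 and 0 of 64 members at 0. Actg2 had a median of 0 in library 2, where 96 of 157 members had none and the highest had 17.2 per 10000. In library 3 its median was 14.6, 9 of 64 members had none, and the highest had 267. The contractile genes of this paragraph were thus spread in different ways, Myl9 over nearly all members and Actg2 unevenly. Eln was uneven too: its median was 0 and 17.4, 107 and 10 members had none, the highest had 54.1 and 464, and the 5 members richest in it held 36.9% and 55.7% of its UMIs. Pln was spread the other way round, with medians of 6.10 and 0 and with 25 of 157 and 49 of 64 members at 0; the 5 richest held 14.1% and 56.2% of its UMIs.

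**Figure D3:**
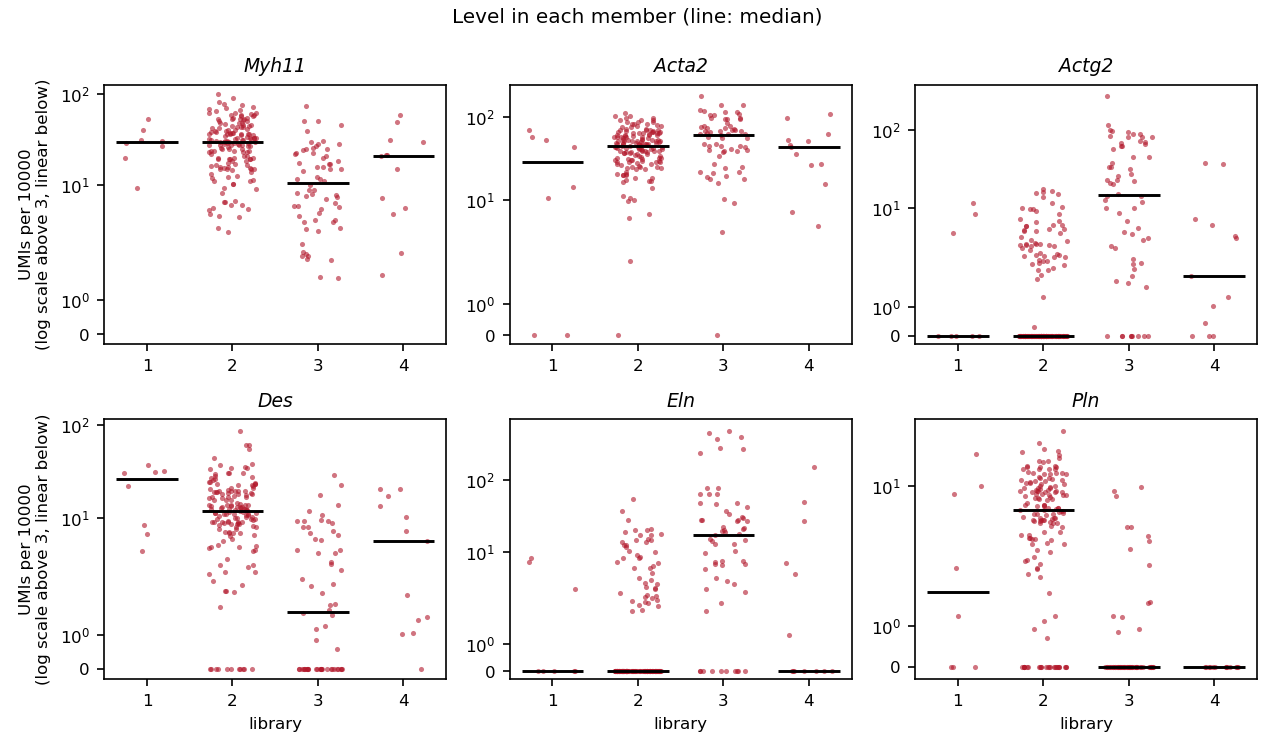
UMIs per 10000 of 6 genes in each member, by library (1 point per member, axis linear near 0 and logarithmic above, line at the median). Members of library 3 reach the highest values for Actg2 (267) and Eln (464), and those of library 2 have the higher median for Pln (6.10 against 0).

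To set the share of members with a gene apart from depth, barcodes were thinned to 2000 UMIs, which kept 148 of 157 members in library 2 and 60 of 64 in library 3. A UMI of Cnn1 was then found in 23.6% (17.1 to 31.3) of library 2 members and 60.0% (46.5 to 72.4) of library 3 members; before thinning, the shares were 39.5% and 81.2%. None of the pericyte-like (0 of 19 and 0 of 136), endothelial-like (0 of 93 and 0 of 67) or macrophage-like barcodes (0 of 109 and 0 of 49) had one, which allows up to 2.68% for the pericyte-like ones of library 3; the median depths of endothelial-like barcodes were 7908 and 6082 UMIs. Actg2 was found in 27.0% and 76.7% of thinned members (38.9% and 85.9% unthinned) and in 0% of endothelial-like ones. Des gave the opposite order, with 85.8% (79.1 to 91.0) and 31.7% (20.3 to 45.0) of thinned members (93.0% and 59.4% unthinned), as did Npy1r with 79.1% and 11.7% (89.2% and 26.6%) and Pln with 73.0% and 18.3% (84.1% and 23.4%). Des was found in 1.08% and 0% of endothelial-like barcodes and in 45.6% of pericyte-like ones of library 3. Lmod1 (52.7% and 45.0%) and Rergl (20.9% and 20%) had nearly equal shares, with overlapping intervals. Libraries 2 and 3 thus differed in which contractile and receptor genes their members showed, and not in all of them. Their members also differed in how many lay at the edge of the rule. Exactly 2 Myh11 UMIs were held by 13 of 157 members in library 2 and 19 of 64 in library 3. The part of this in the differences was not tested.

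Set side by side over the 4 libraries, the levels of members formed several orders, described here with counting intervals and without a test. Myh11 was at 2211, 3157, 1230 and 1763 CPM, and Tagln, the actin-binding protein transgelin, at 5712, 9905, 14516 and 6970. Pln, Npy1r and Fmod were highest in libraries 1 and 2. Pln was at 421 (241 to 684) and 682 (620.5 to 747) there, at 73.0 (50 to 103) in library 3 and at 0 in library 4, which allows up to 25.7. Fmod was at 447, 451, 89.0 and 202, and libraries 1 and 2 could not be told apart. For Des, the order was library 1 (1579, 1205 to 2033), library 2 (1338, 1252 to 1429), library 4 (843, 700 to 1008) and library 3 (276, 229 to 330), and the intervals of libraries 1 and 2 overlapped. Without the mixed barcodes they did not: Des was then at 2428 (1819 to 3176) in library 1 and 1443 (1347 to 1544) in library 2. Leaving them out also moved Pln in library 1 to 641 (351 to 1076), Npy1r to 962 and Actg2 to 504, since the mixed member there held many UMIs but few of these genes. The levels of library 1 given elsewhere, and those of Myh11, Tagln and Fmod above, include this member. It had 15 UMIs of Myh11 and 21 of Tagln among its 16166, so the place of library 1 in the orders of these 2 genes depends on it.

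Other genes were highest in libraries 3 and 4. Igf2, insulin-like growth factor 2, was at 79.0 (16.3 to 231), 36 (23.0 to 53.5), 600 (530 to 677) and 1694 (1487 to 1921) CPM. Dlk1, a noncanonical Notch ligand that like Igf2 is imprinted, was at 26.3, 168, 304 and 1352. Col4a2 was at 52.6, 28.5, 395 and 599. These 3 genes were therefore highest in library 4, and for Igf2 and Col4a2 the intervals of libraries 1 and 2 overlapped. The fibroblast-like barcodes of the same libraries had Igf2 at 20.1, 8.56, 2304 and 3309, the same order of the highest 2, so the order was not confined to members. Actg2, Eln and Tpm1 stood highest in library 3 alone, and Rergl, at 293 (211 to 396), in library 4, where the interval lay above those of libraries 2 and 3, although 5 of its 13 members held all 42 UMIs and 1 held 15. Depth and the number of members (8 in library 1 and 13 in library 4) differed between libraries, and their part in these orders was not tested.

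**Figure D4:**
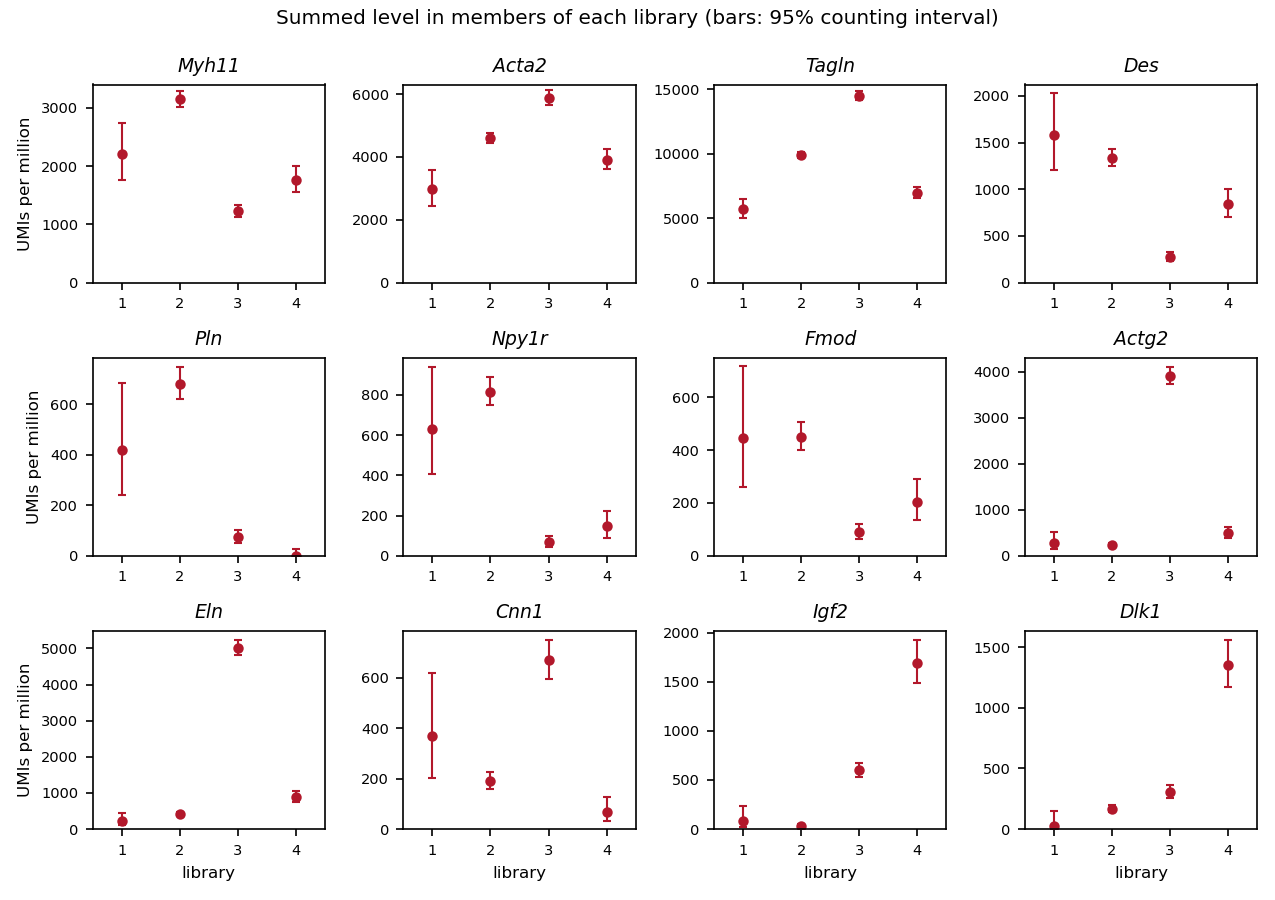
CPM of 12 genes summed over the members of each of the 4 libraries, with 95% counting intervals. Des, Pln, Npy1r and Fmod are high in libraries 1 and 2, Actg2 and Eln are highest in library 3 (3917 and 5012), and Igf2 and Dlk1 are highest in library 4 (1694 and 1352).

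Dividing cells were looked for with 8 mitosis genes, chosen after their values were seen. At least 3 UMIs of them together were found in 0 of 8, 1 of 157 (0.637%, 0.0161 to 3.50), 13 of 64 (20.3%, 11.3 to 32.2) and 2 of 13 (15.4%, 1.92 to 45.4) members of libraries 1 to 4. The pericyte-like barcodes of libraries 3 and 4 gave 17.9% (12.4 to 24.5) and 18.6%, and the fibroblast-like ones of library 3 gave 12.2% (10.1 to 14.6). In library 3, the intervals of members, pericyte-like and fibroblast-like barcodes overlapped. Depth also differed, with median UMIs of 5310.5 in members and 2755.5 in pericyte-like barcodes of library 3, and its part in these shares was not tested. In library 2, the 5 richest members held 96.1% of the 51 mitosis UMIs. Over the cell cycle list, 8 of 13 measured genes were at least 2-fold higher in members than in other barcodes in both libraries, but 2 were after thinning to 2000 UMIs. Thinning lowered the count over all genes as well. Of this list, library 2 by itself had 9 of 13 higher and 0 lower, beside 16% and 24.8% of all genes. Library 3 had 19 of 20 higher and 0 lower, beside 21.9% and 17.7%. Against pericyte-like barcodes only 4 were measured in both libraries, and none was higher or lower in both. Of 14 measured in library 3, 9 were at least 2-fold lower in members and none was higher, beside 10.7% and 8.36% of all genes. Their median log2 ratio was -1.37, a direction that the shares of barcodes with mitosis UMIs did not show.

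Immediate early and heat shock genes, which respond quickly to stress, were 2-fold higher than in other barcodes in both libraries for 16 of 27 measured, and for 5 after thinning. Over all genes, too, fewer were higher in both libraries after thinning. Of this list, library 2 by itself had 17 of 28 higher and 2 lower, beside 16% and 24.8% of all genes. Library 3 had 21 of 27 higher and 1 lower, beside 21.9% and 17.7%. Against pericyte-like barcodes 0 of 25 were higher in both libraries and 1 was lower, and against fibroblast-like barcodes 1 of 26 was higher and 1 lower. Hspb1, a small heat shock protein that binds actin, was at 1876 and 1086 CPM in members, with ratios to other barcodes of 1.47 and 2.45. Its ratio to pericyte-like barcodes was 1.00 in library 2 and 3.43 (3.02 to 3.86) in library 3. In energy metabolism, 6 of 23 measured genes were higher and 2 lower than in other barcodes in both libraries. In library 2 alone, 9 of 24 were higher and 3 lower, beside 16% and 24.8% of all genes. In library 3 alone, 8 of 23 were higher and 2 lower, beside 21.9% and 17.7%. Slc2a4, the insulin-responsive glucose transporter, had ratios of 6.63 and 4.44 and Lpl, lipoprotein lipase, 4.90 and 2.66. Slc2a4 did not separate members from pericyte-like barcodes (0.09, -0.97 to 1.35, and -0.37, -1.55 to 0.74).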

How the data were processed

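Single-cell 3′ RNA libraries (10x Genomics, version 3 chemistry, per the labels' protocols) were deposited as 1 matrix of UMI counts for 25399 gene rows and 41444 barcodes. The authors made these counts with Cell Ranger 3.1.0, per the file headers; Rnor_6.0, CASAVA 1.8 and Seurat appear in the submitters' processing notes. Whether doublets had been removed is not given in the sources used here, and no doublet caller was run. Rows sharing a symbol were summed (25267 symbols). Barcodes were assigned to 4 libraries by their number suffix, and members, pericyte-like and fibroblast-like barcodes by the rules given above. Endothelial-like barcodes had at least 5 UMIs of Cdh5 and Egfl7 and at least 10 per 10000. Macrophage-like ones met the same limits for C1qa, C1qb and C1qc and had Cd68. Neither had Myh11. Pecam1, 1 of 12 symbols not in the gene table, could not be used in the endothelial rule.

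UMIs were summed per class and library and compared as log2 ratios of CPM (Python 3.11.15, scipy 1.17.1), with exact binomial intervals, exact Poisson intervals for levels, and sides under 3 UMIs set to 3. A gene with 1 side under that floor was kept only where the other side lay above it, a rule added after the data were seen. Of 424 genes in 12 lists, 416 were found. The members and lists were chosen with earlier results of these data known. Named genes were the 8 highest and 5 lowest of each list in each comparison, by the median log2 ratio over libraries. Outside the lists they were the 20 genes highest against other barcodes and the 10 highest and 10 lowest against pericyte-like barcodes, by the ratio nearest to 0 over libraries. Rule genes and markers could always be named. Results for 2 genes that this rule selects are not reported here. The count code was tested on simulated data with 200 changed genes. Their planted log2 ratios were 2 or 3 in either direction, well past the 2-fold call. Only genes with at least 20 UMIs expected in members before the change were used. Counts were drawn with Poisson error alone, so smaller changes and variation between barcodes were not tried. How often unchanged genes were called is not given here. The code recovered all 200 against other barcodes of both libraries and against pericyte-like barcodes of library 3. Against pericyte-like barcodes of library 2 it recovered 130 of 200, so counts that need this comparison can miss changed genes. Alternatives changed the member rule, the filters, the scaling, the weighting of cells, the depth and the floor.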

Additional observations from a re-analysis of the deposited data

Results flagged for a closer look

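In the comparison with pericyte-like barcodes, 3 of the genes reported here differed between library 2 and library 3 in direction, with 2-fold or more on each side; the difference between libraries was not tested, and the libraries have 1 sample each. Dlk1, an imprinted Notch ligand, had 112 UMIs in members and 0 in pericyte-like barcodes of library 2. Its log2 ratio there was 2.14 at the floor, with an interval from 1.82 upward. In library 3 it had 133 and 953 UMIs, with -2.55 (-2.82 to -2.29). Its ratio in library 2 rests on a class of 29 barcodes. Hmgb2, a chromatin protein abundant in dividing cells, had 1.51 (0.36 to 2.98) in library 2 and -1.20 (-1.41 to -1) in library 3. Flt1, a VEGF receptor known from endothelium, had -4.84 (8 UMIs in members and 27 in pericyte-like barcodes) and 1.51 (35 and 15).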

How the results depend on the processing

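No paired analysis was possible because each group had 1 library and the replicate number is shared by name only. Of the 127 main counts recomputed under the alternatives, 110 stayed within 1.5 times, and no contractile count did otherwise: it ranged from 27 to 32 against other barcodes (31 in the main analysis), from 15 to 19 against pericyte-like barcodes (19) and from 22 to 29 against fibroblast-like barcodes (27).

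With a mitochondrial limit of 10%, members numbered 4, 70 and 6 in libraries 1, 2 and 4. Leaving out every barcode with 5 or more endothelial, glial, neuron or macrophage marker UMIs left 4 members in each of libraries 2 and 3, so the comparisons were not run; neuron markers were in all but 1 of the members of these libraries. With at least 5 Myh11 UMIs, library 3 had 34 members. Against other barcodes, thinning to 2000 UMIs gave 354 genes higher and 311 lower, and the floor as first planned gave 3320 higher (main analysis 871 and 1113). Against pericyte-like barcodes (81 and 91), a minimum of 5 summed UMIs gave 232 lower, and one of 100 gave 33 higher and 19 lower, with 2 pericyte genes lower. Thinning and a pericyte-like rule of 10 UMIs were not run there, since under 20 barcodes remained on a side. Against fibroblast-like barcodes (331 and 491), a minimum of 100 gave 125 higher and 309 lower, and thinning 219 and 276. The share of members with Cnn1 was 39.5% and 81.2% unthinned and 42.9% in library 3 thinned to 1000 UMIs.

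Among values past 2-fold in the main analysis, every change of sign found was against other barcodes. Thinning was not run against pericyte-like barcodes, and single genes were not recomputed against fibroblast-like barcodes. Those 2 comparisons were therefore checked less. As a mean of per-cell shares, the log2 ratio was -0.019 for Birc5 and -0.018 for Igf2 in library 3 and -0.54 for Ube2c in library 2. Thinned, it was -0.14 for Birc5, -0.075 for Cdk1, -0.079 for Igf2, -0.15 for Plagl1 and -0.51 for Top2a in library 3. Without mixed barcodes, Ube2c was -0.28 in library 2. Of the remaining named gene and share values, 5695 stayed within the 95% counting interval of the main value and 878 lay outside it. The cause was not tested. The 5695 include 650, 491 and 650 values under minimums of 5 and 100 summed UMIs and the floor as planned. Those 3 settings choose which genes are measured and cannot change a ratio. Thinning to 2000 UMIs left 69 values within the interval, moved 216 and reversed 5. The mean of per-cell shares left 409 within it, moved 238 and reversed 3. Depth limits the members of libraries 1 and 4 and the pericyte-like barcodes of library 2.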
